A study of Mus musculus with 6 samples.

Results

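Liver RNA of mice with dextran sodium sulphate colitis was set against liver RNA of untreated mice, on 1 array each. The control group (CON) ate a basal diet and drank plain water throughout. The colitis group (DSS) ate the same diet and, after 7 days of plain water, drank 1.5% (w/v) dextran sodium sulphate, a sulphated sugar polymer that damages the lining of the large bowel. A further group (DSSPAR) ate a diet with 2% parsley from the start and then drank 1.5% dextran sodium sulphate. Its values are printed beside the others as a description only. All mice were male C57BL/6J animals, 7 weeks old, kept 1 to a cage after 3 days of acclimatization. The treatment protocol puts DSS animals on the polymer for 10 days and DSSPAR animals for 9 days, while the growth protocol names 9 days only, so the length of exposure of the DSS group is not settled. Liver RNA of 7 mice was pooled for each array. Every ratio below therefore compares 1 pool with another and carries no error between mice, no test and no p-value.

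The 13034 genes described here, of 18194 on the Affymetrix Mouse Genome 430 2.0 array under a single gene symbol, were those whose intensity lay above 96.6 in CON, in DSS or in both. That floor was the median intensity of the 3 liver arrays, and a value under it was raised to it before the ratio was taken. A ratio against a floored value is a lower bound and is written "at least". Where a gene had several probe sets, which are groups of short probes that each read one stretch of a transcript, the brightest stood for it. Intensities are on the authors' linear scale, and ratios are log2 of DSS over CON.

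The liver receives blood from the bowel through the portal vein, and with it bacterial products and cytokines when the bowel wall is damaged. Hepatocytes answer interleukin-6 and interleukin-1 with the acute phase response, in which they secrete plasma proteins such as serum amyloid A, through the transcription factors STAT3, C/EBP and NF-kB. Inflammation is also known to lower many hepatic enzymes of drug, lipid and bile acid metabolism.

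In the DSS liver, acute phase genes and metallothioneins were higher than in CON, with Lcn2, Orm2, Mt2, Mt1, Saa3 and Saa2 between 25.1-fold and 249.95-fold, and signals of macrophage, neutrophil and DNA replication genes were also higher. Genes of fatty acid synthesis, of glycolysis, gluconeogenesis and glycogen, of amino acid breakdown and of drug metabolism were lower, among them Me1, G6pc, Cyp4a12a and Gsta2, and so were the iron hormone genes Hamp and Hamp2. In all, 616 genes passed the 2-fold mark upwards (4.73% of those measured) and 548 downwards (4.2%). At 4-fold there were 63 higher (0.483%) and 38 lower (0.292%), and the median log2 ratio of all genes was -0.018. Counts of members of a gene list are to be read against these percentages.

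The balance of higher to lower genes depended on how the arrays were scaled. With the deposited scaling, 52.9% of the genes past 2-fold were higher, against 71.0% with each array centred on its own median (854 higher and 349 lower). The bioB, bioC, bioD and cre control transcripts, which the standard Affymetrix protocol adds to each hybridization, read higher in DSS than in CON in 18 of 18 probe sets, by a median of 1.44-fold. Centring on them, an alternative chosen after the data were seen, moved the median of all genes to -0.45 and left 168 genes higher and 1836 lower. In DSSPAR these controls read lower than in CON, at a median log2 ratio of -0.55, against 0.52 in DSS. The place of DSSPAR beside CON and DSS was read with the deposited scaling only and may change with another. The ratio of 3′ to 5′ signal, a measure of RNA quality, was 1.21 for Gapdh in CON and 1.54 in DSS, and 3.55 and 3.53 for Actb. The part of these controls and of RNA quality in the results was not tested. List medians under about 0.5 in size are therefore given with their value under that centring wherever it turns their sign. Counts of members past 2-fold move with it too, and are given under it where the balance of higher to lower turns.

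**Figure D1:**
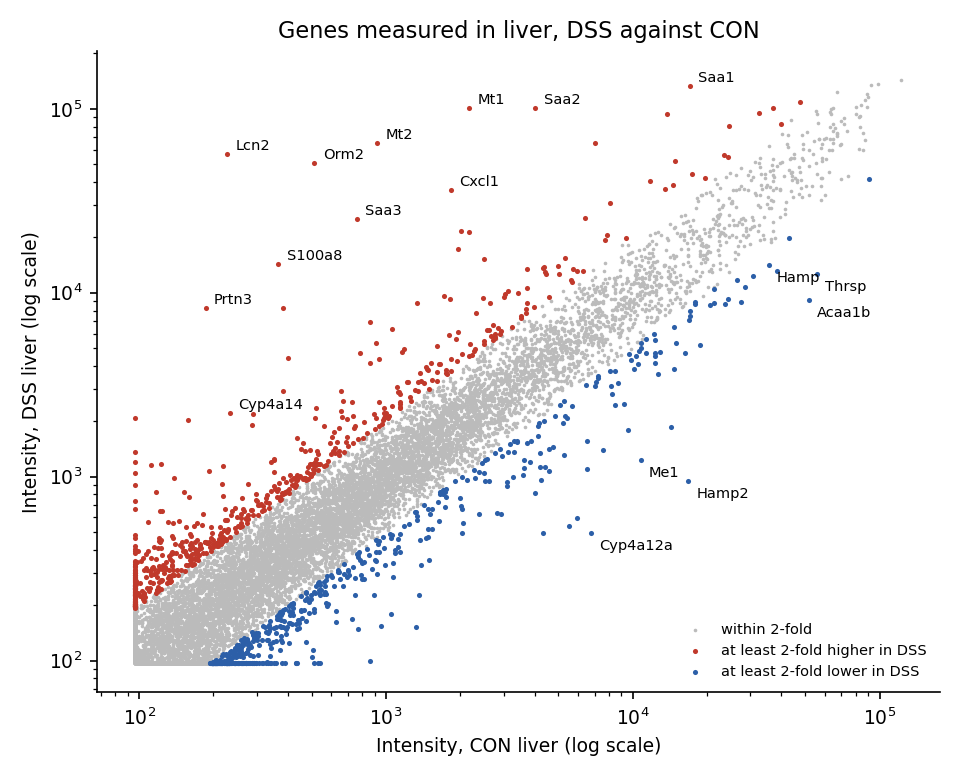
Intensity in the DSS liver (vertical axis, log scale) against that in the CON liver (horizontal axis, log scale) for the 13034 measured genes, 1 point per gene with values under the floor set to it, in red where at least 2-fold higher in DSS, blue where at least 2-fold lower and grey between. Lcn2, Orm2, Mt1 and Mt2 lie far above the grey band, with log2 ratios of 5.54 to 7.97, and Hamp2 and Cyp4a12a below it, with -4.15 and -3.78.

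The serum amyloid A genes encode lipoprotein-bound proteins that are the classical acute phase reactants of the mouse, and 4 of 4 were at least 2-fold higher. Saa1 had an intensity of 17015 in CON, 132750 in DSS and 74663 in DSSPAR, 7.802-fold higher in DSS than in CON. Saa2 stood at 4034 in CON, 101133 in DSS and 54046 in DSSPAR, 25.1-fold higher. Saa3, which macrophages and other extrahepatic cells also make, was at 760.2 in CON, 25048 in DSS and 4031 in DSSPAR, 32.9-fold higher. For each of the 3, with the deposited scaling, the DSS array was the highest and DSSPAR lay between it and CON. Saa4, the constitutive member, was 2.71-fold higher. The Saa2 probe set is of a type that shares probes with related transcripts, so the Saa1 and Saa2 signals may not be fully separate.

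Of the 27 measured genes of other acute phase proteins, 19 were 2-fold or more above CON and 2 below it, with a median log2 ratio of 1.93. Lcn2, an iron-siderophore binding protein, had an intensity of 227 in CON, 56782 in DSS and 35786 in DSSPAR, the highest ratio of any measured gene at 249.95-fold higher. Orm2, an orosomucoid that binds drugs and lipids in plasma, was at 513 in CON, 50824 in DSS and 42548 in DSSPAR, 99.1-fold higher. Its relative Orm1 was at 32358 in CON, 95289 in DSS and 61648 in DSSPAR, 2.94-fold higher, while Orm3 was at least 7.61-fold higher.

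A2m, the broad protease inhibitor alpha-2-macroglobulin, read 157 in CON, 2042 in DSS and 135 in DSSPAR, a log2 ratio of 3.700, with DSSPAR near CON. Serpina3n, a serine protease inhibitor, was 8.85-fold higher, and Fgl1, a fibrinogen-like protein of hepatocytes, was 9.24-fold higher. Both stood among the members with the higher ratios. Apcs (serum amyloid P, the mouse pentraxin that responds to inflammation) read 13789 in CON, 93996 in DSS and 53656 in DSSPAR, 6.82-fold higher. Among proteins that handle bacterial lipopolysaccharide, Cd14 was 7.101-fold higher and Lbp 6.004-fold higher. Il1rn, the interleukin-1 receptor antagonist, was 5.41-fold higher, and Steap4, a metalloreductase, 9.95-fold higher. In all 6 members read by more than 1 usable probe set, these lay on 1 side of CON.

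Other plasma proteins of the list were closer to CON. Lrg1 (a leucine-rich glycoprotein), Itih3 and Itih4 (inter-alpha-trypsin inhibitor heavy chains) and Cp (ceruloplasmin, the copper ferroxidase) had ratios of 1.93, 1.802, 1.703 and 1.45. Hp, haptoglobin, which binds free haemoglobin, was at 39745 in CON, 82955 in DSS and 41406 in DSSPAR, 2.09-fold higher. The fibrinogen chains Fga, Fgb and Fgg, haemopexin (Hpx) and Crp lay under the 2-fold mark, with ratios of 0.77, 0.88, 0.63, 0.62 and 0.57.

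**Figure D2:**
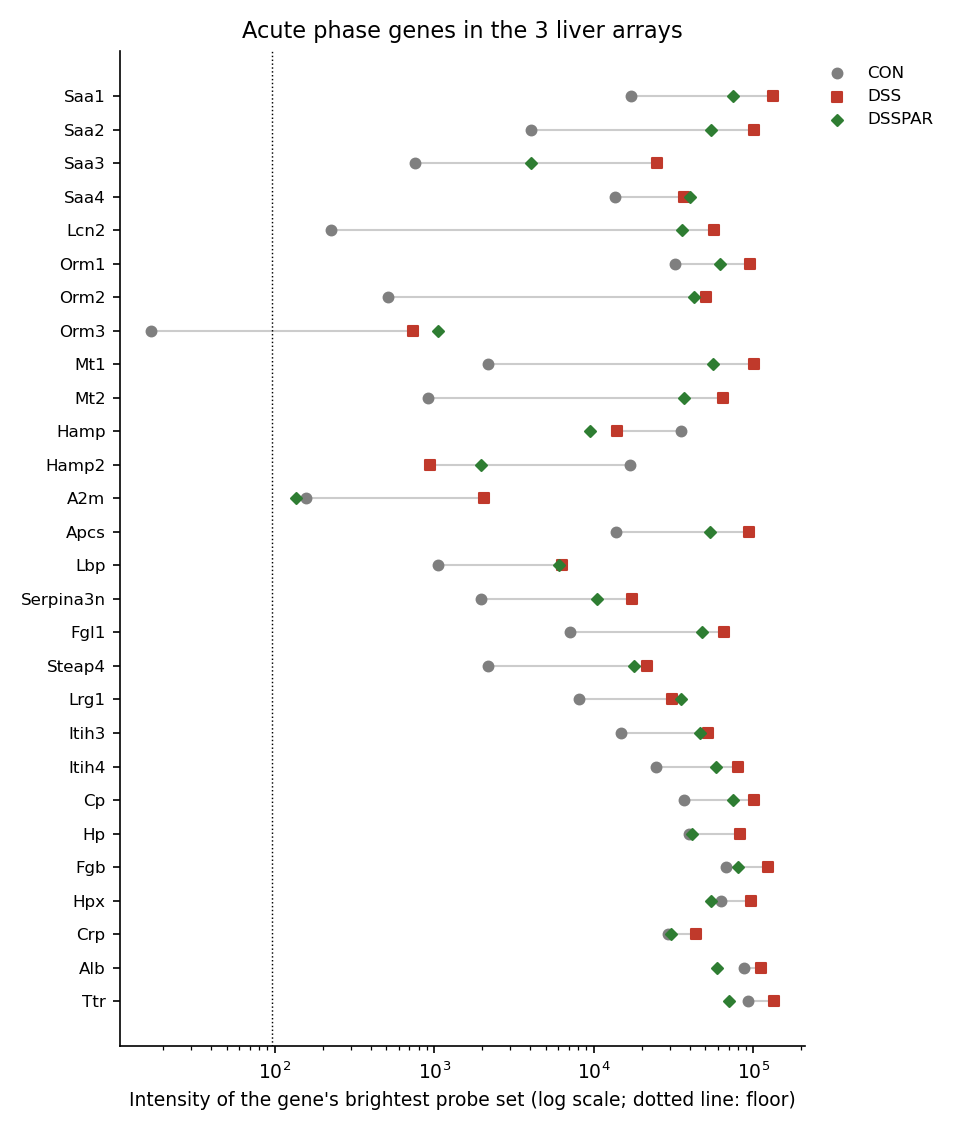
Intensity (log axis) of acute phase and related genes on the 3 liver arrays, with CON as grey circles, DSS as red squares, DSSPAR as green diamonds and the floor of 96.6 as a dotted line. The DSS square lies furthest right for Lcn2 (56782), Orm2 (50824) and Saa1 (132750), and the CON circle for Hamp and Hamp2.

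Promoter windows of 4 acute phase genes and of both hepcidin genes, which were lower in DSS, are printed below because C/EBP and STAT3 are known to drive such genes. They were picked because each holds a match to a searched pattern. The windows of Mt1, Prtn3 and S100a8 held no match to any pattern searched. Each window is the 250 bases before the transcription start, from RefSeq on mouse build GRCm38.p6, read 5′ to 3′ on the gene's strand. Capitals mark the match to TTGCNNAA (the C/EBP pattern) in Saa1, Saa2, Lcn2 and Orm2 and to TTCNNNGAA (the STAT pattern) in Hamp and Hamp2. The windows are chr7:46742981-46743230 (minus strand) for Saa1 and chr7:46751583-46751832 (plus strand) for Saa2. Lcn2 lies at chr2:32387740-32387989 (minus strand) and Orm2 at chr4:63362199-63362448 (plus strand). Hamp lies at chr7:30944030-30944279 and Hamp2 at chr7:30924182-30924431, both on the minus strand.
Saa1: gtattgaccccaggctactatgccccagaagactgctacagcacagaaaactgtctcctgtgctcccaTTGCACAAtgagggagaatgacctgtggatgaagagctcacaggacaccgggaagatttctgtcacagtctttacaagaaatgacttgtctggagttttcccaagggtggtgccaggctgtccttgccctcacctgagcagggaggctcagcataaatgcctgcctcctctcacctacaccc
Saa2: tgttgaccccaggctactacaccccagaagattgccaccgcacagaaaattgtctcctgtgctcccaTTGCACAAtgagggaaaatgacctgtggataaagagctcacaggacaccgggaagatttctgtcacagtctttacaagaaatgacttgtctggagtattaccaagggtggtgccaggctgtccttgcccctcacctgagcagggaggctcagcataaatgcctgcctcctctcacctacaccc
Lcn2: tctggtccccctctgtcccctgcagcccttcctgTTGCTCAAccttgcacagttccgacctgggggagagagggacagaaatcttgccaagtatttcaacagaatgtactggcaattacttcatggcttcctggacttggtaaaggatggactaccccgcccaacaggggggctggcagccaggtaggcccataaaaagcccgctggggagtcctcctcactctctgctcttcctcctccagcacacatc
Orm2: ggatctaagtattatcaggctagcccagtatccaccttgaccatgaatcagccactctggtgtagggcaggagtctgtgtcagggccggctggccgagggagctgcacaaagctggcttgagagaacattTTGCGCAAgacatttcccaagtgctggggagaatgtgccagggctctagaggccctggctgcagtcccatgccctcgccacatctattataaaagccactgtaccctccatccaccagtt
Hamp: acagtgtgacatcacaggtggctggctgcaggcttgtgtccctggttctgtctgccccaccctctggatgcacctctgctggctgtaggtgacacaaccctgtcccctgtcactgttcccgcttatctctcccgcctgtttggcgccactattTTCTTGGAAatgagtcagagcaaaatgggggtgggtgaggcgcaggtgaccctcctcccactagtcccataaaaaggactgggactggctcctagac
Hamp2: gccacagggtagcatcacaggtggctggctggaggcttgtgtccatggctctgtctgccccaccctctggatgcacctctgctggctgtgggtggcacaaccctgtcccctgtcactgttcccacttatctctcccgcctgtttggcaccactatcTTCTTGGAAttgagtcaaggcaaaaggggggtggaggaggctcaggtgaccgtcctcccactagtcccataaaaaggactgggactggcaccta

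Saa1 and Saa2 are neighbours on opposite strands, and their windows were 94.8% identical when aligned, with TTGCACAA at -182 and -183 relative to the start. The Lcn2 window held TTGCTCAA at -216 and the Orm2 window TTGCGCAA at -120. Both hepcidin windows held TTCTTGGAA, at -97 in Hamp and -94 in Hamp2, and were 89.7% identical, although the 2 genes were lower and not higher in DSS.

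Over both acute phase lists, 12 of 25 genes with a promoter window held TTGCNNAA on either strand (48%), against 7.80% of 10487 measured genes and 9.55% of all 27025 promoters. Among genes at least 4-fold higher, which include acute phase genes already counted, it was 14 of 46 (30.4%), and among those at least 4-fold lower 1 of 31 (3.23%). At 2-fold the shares were nearer the background, with 50 of 490 higher genes (10.2%) and 35 of 434 lower genes (8.06%). Hepatocyte marker genes, which were mostly near CON, held it in 4 of 13 windows (30.8%). TTCNNNGAA was found in 7 of 25 acute phase windows (28%), against 6.13% of measured genes and 7.18% of all promoters. It was near that background in genes at least 4-fold higher, with 4 of 46 (8.70%), in genes at least 4-fold lower, with 2 of 31 (6.45%), and in hepatocyte markers, with 1 of 13 (7.69%). The acute phase windows with TTCNNNGAA include that of Hamp2, a list member that was lower in DSS. An NF-kB pattern (a run of G, any pair of bases, then TTTCC) was found in 2 of 25 acute phase windows (8%) and in 4 of 46 of the genes at least 4-fold higher, against 138 of 10487 measured genes (1.32%). The patterns were picked with the values known, base composition was not matched, and matches of different patterns were counted separately even where they could overlap. A match says only that these letters occur in the window.

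Iron and metal genes went both ways, with 6 of 20 at least 2-fold higher and 2 lower, or 5 and 5 with the hybridization controls. Lcn2, Mt1, Mt2 and Hamp2 were already counted with the acute phase proteins. Mt2 and Mt1 encode metallothioneins, small proteins that bind zinc and copper. Mt2 read 919 in CON, 65090.5 in DSS and 36946 in DSSPAR, 70.8-fold higher, and Mt1 2176 in CON, 101145 in DSS and 56099 in DSSPAR, 46.5-fold higher. The Mt1 probe set is of a shared type, and an unshared one, under the floor in CON, had a log2 ratio of at least 2.14. Hepcidin, the hormone that blocks iron export by ferroportin, showed the opposite sign. Hamp was at 35496 in CON, 14091 in DSS and 9426 in DSSPAR, 2.52-fold lower, and its second probe set had a log2 ratio of -1.44. Hamp2 was at 16794 in CON, 944 in DSS and 1976 in DSSPAR, 17.8-fold lower. CON was the highest of the 3 arrays for both. The Hamp2 value came from a probe set of a type that shares probes with related transcripts, and the other Hamp2 probe set lay under the floor on every liver array.

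Among the other iron genes, Slc11a2, the divalent metal importer, was 4.29-fold higher on its brightest probe set and at 0.39 on the second. Tfrc, the transferrin receptor, was 3.12-fold higher on its brightest probe set, but its second brightest had a ratio of -0.58. Bmp6, Smad7 and Id1, a ligand and targets of the BMP pathway that drives hepcidin, had ratios of -0.96, -0.78 and -0.77, short of the 2-fold mark. They were picked after their values were seen, and Smad7 was at 0.058 in the setting that gave its highest ratio. The ferroportin gene Slc40a1 was at 0.51, and the zinc importer Slc39a14 at 0.73.

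Plasma proteins known to drop in inflammation were not 2-fold off in either direction in any of the 11 measured members. Their median log2 ratio was 0.48, or -0.024 with arrays centred on the hybridization controls and -0.034 with quantile normalization. Ttr, the thyroxine carrier, read 92358 in CON, 135115 in DSS and 70244 in DSSPAR, and Alb, albumin, 87388 in CON, 111057 in DSS and 59502 in DSSPAR. Serpina6, the corticosteroid carrier, had the lowest ratio of the list (-0.82). Among 30 complement and coagulation genes, 1 was 2-fold higher, the mannose-binding lectin Mbl1 (2.53-fold higher), and the list median was 0.16. With the hybridization controls the median was -0.34, with 0 members higher and 2 lower.

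**Figure D3:**
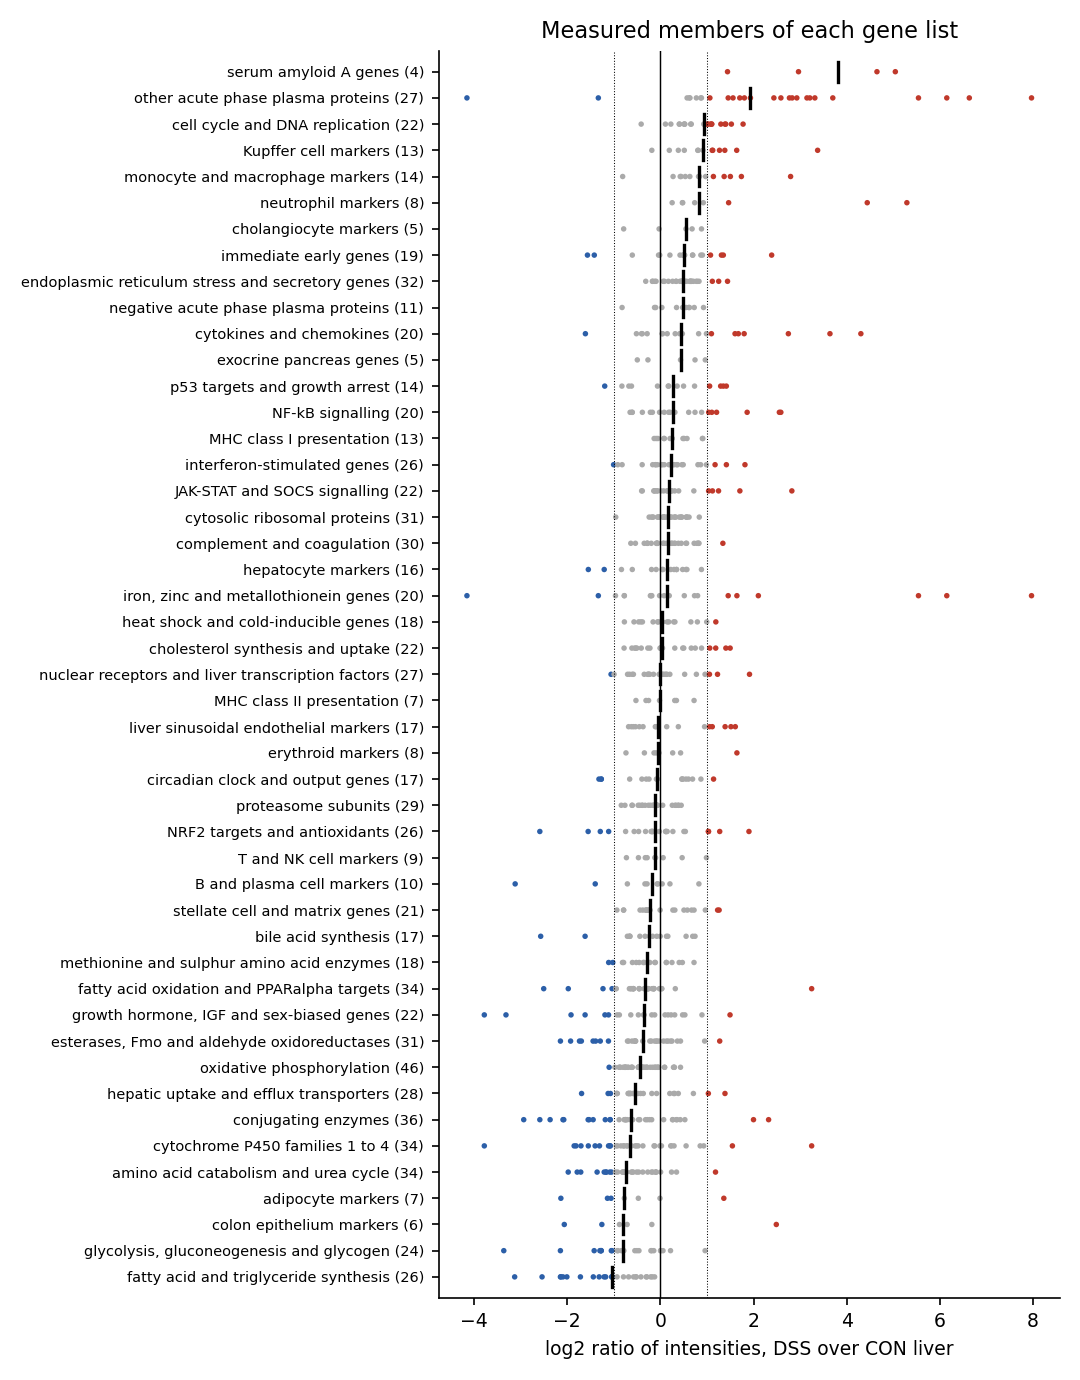
Log2 ratios of DSS to CON for the measured members of the gene lists (1 point per gene, red at least 2-fold higher, blue at least 2-fold lower, grey between, number of measured members in parentheses), with a black bar at each list's median, a solid line at the median of all genes and dotted lines at 2-fold. Serum amyloid A and other acute phase genes lie furthest right, with medians of 3.81 and 1.93, and fatty acid and triglyceride synthesis furthest left, at -1.03.

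Of 22 measured genes of JAK-STAT signalling, the pathway of interleukin-6, 5 were at least 2-fold higher and 0 lower. Socs3, the feedback inhibitor that STAT3 induces, read 3133 in CON, 10215 in DSS and 6791 in DSSPAR, 3.26-fold higher. Stat3 itself was 2.05-fold higher, Il6st, the shared receptor chain gp130, 2.17-fold higher, and Bcl3 2.37-fold higher. Osmr, the oncostatin M receptor, was 7.07-fold higher on its brightest probe set, with -0.21 on the second. The list median was 0.19 (-0.28 with the hybridization controls), so most members lay near CON. Usable probe sets lay on 1 side of CON in 9 of the 17 members with more than 1.

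In the NF-kB list, 6 of 20 were at least 2-fold higher and 0 lower, with a median of 0.26 (-0.17 with the hybridization controls). Usable probe sets lay on 1 side of CON in 3 of the 8 members with more than 1. On second brightest probe sets, 1 of 8 members was 2-fold higher. Il1r1, the interleukin-1 receptor, was at 785 in CON, 4709 in DSS and 1812 in DSSPAR, 5.999-fold higher. Nfkbiz, an inducible inhibitor-like cofactor needed for Lcn2 induction, was 5.87-fold higher, and Tnfaip3, the A20 feedback inhibitor, 3.63-fold higher. Receptors for bacterial lipoprotein (Tlr2) and for TNF (Tnfrsf1a) were 2.15-fold and 2.05-fold higher. In the setting that gave its lowest ratio, Tlr2 was at 0.031 and Tnfaip3 at 0.26.

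Chemokine genes split. Of 28 cytokine and chemokine genes on the array, 20 were measured above the floor, of which 7 were at least 2-fold higher and 1 lower. Cxcl1, a neutrophil attractant that hepatocytes make, read 1829 in CON, 36092 in DSS and 18538 in DSSPAR, 19.7-fold higher, and its 3 probe sets gave 3.27 to 4.302. Cxcl13, a B cell attractant, was at 286 in CON, 1916 in DSS and 839 in DSSPAR, 6.71-fold higher. Cxcl14 was at least 12.5-fold higher, and Ccl6 3.48-fold higher. Cxcl9, the T cell attractant induced by interferon gamma, went the other way, with 2036 in CON, 667 in DSS and 967 in DSSPAR, 3.05-fold lower. Il33, an alarmin, was 3.03-fold higher, and Il1a was at least 3.19-fold higher and Ccl2 at least 2.14-fold higher.

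Interferon-stimulated genes stayed mostly near CON, with 3 of 26 at least 2-fold higher and 1 lower, and a median of 0.23. With the hybridization controls 1 was higher and 3 were lower, and the median was -0.27. The higher ones were Zbp1 (1.81), Oas2 (1.42) and Irf8 (1.17), and the lower one Oasl1 (-1.005). No measured gene of MHC class I presentation (13) or class II presentation (7) was 2-fold off, with medians of 0.25 and -0.020 (-0.25 and -0.51 with the hybridization controls).

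Marker genes of other cell types were read beside these. In pooled tissue RNA, a change in the number of cells of a type and a change in RNA per cell cannot be told apart. Of the neutrophil markers, 8 of 14 were above the floor and 3 were at least 2-fold higher. S100a8 and S100a9, the calprotectin subunits, read 367 in CON, 14340.5 in DSS and 5429 in DSSPAR, and 381 in CON, 8274 in DSS and 2602 in DSSPAR, which is 39.1-fold and 21.7-fold higher in DSS than in CON. Ngp, a granule protein of immature neutrophils, was 2.76-fold higher. The other measured markers, Mmp8, Mmp9, Elane, Il1b and Ltf, lay under 2-fold, with ratios of 0.92, 0.74, 0.48, 0.47 and 0.25. The granule protease gene Prtn3, outside the list, was at 186 in CON, 8258 in DSS and 6597 in DSSPAR, 44.4-fold higher, whereas its neighbour in function Elane read 190.3 in CON, 265 in DSS and 31.2 in DSSPAR. Mpo lay under the floor on the CON and DSS arrays. Over all single-symbol probe sets of the neutrophil list, under the floor or not, intensities summed to 2009 in CON, 24494 in DSS and 9589 in DSSPAR. S100a8 and S100a9 made up most of the DSS sum. The part of neutrophil signal in the other results was not tested.

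Macrophage signals were higher in breadth. Of 14 measured monocyte and macrophage markers, 5 were at least 2-fold higher and 0 lower, and of 13 Kupffer cell markers 6 and 0. Their medians were 0.83 and 0.91, and stayed above 0 in every scaling tried. Marco, a scavenger receptor of resident liver macrophages, read 112 in CON, 1158 in DSS and 966 in DSSPAR, 10.4-fold higher. Cd163, the haemoglobin-haptoglobin receptor, was 3.11-fold higher, Cd5l 2.61-fold higher, and the complement subunits C1qb and C1qc 2.18-fold and 2.41-fold higher. Clec4f, Vsig4 and Adgre1, which also mark these cells, lay under 2-fold, at 0.81, 0.801 and 0.44. On the monocyte side, Chil3 was at least 6.94-fold higher, Fcgr1 3.34-fold higher and Ccr2 2.58-fold higher, the last with 0.40 on its second brightest probe set. Fcgr1 was at 0.16 in the setting that gave its lowest ratio.

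Sinusoidal endothelial genes had a median of -0.046 (0.099 with arrays centred on their medians and -0.55 with the hybridization controls), but 5 of 17 were at least 2-fold higher and 0 lower. Centred on the hybridization controls, 2 were higher and 3 lower. Under the deposited scaling the higher ones were the adhesion molecules Icam1 (1.61) and Vcam1 (1.51), the mannose receptor Mrc1 (1.39), Lyve1 (1.11) and Fcgr2b (1.05). Stab1, Stab2 and Pecam1, of the same list, were at -0.45, -0.091 and -0.58. Of 21 stellate cell and matrix genes, 2 were 2-fold higher, Lum (1.26) and Col4a1 (1.23), while the fibrillar collagen genes Col1a1, Col1a2 and Col3a1 had -0.79, -0.29 and 0.72. In that list 0 members were higher and 2 lower with the hybridization controls.

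Lymphocyte genes gave few differences past 2-fold. Of 14 T and NK cell markers 9 were above the floor and none was 2-fold off. These signals were dim: 0 were measured with a floor at the 75th percentile. With no floor 2 were at least 2-fold lower and 0 higher, so a drop may be hidden by the floor. Among 10 measured B and plasma cell markers, Ighm, the immunoglobulin M heavy chain, read 1327 in CON, 153 in DSS and 473 in DSSPAR, 8.68-fold lower, and Cd22 was at least 2.64-fold lower. The -3.12 to -0.32 range over the Ighm probe sets above the floor was wide, and Jchain (0.204) and Cd79b (-0.33) stayed within 2-fold. None of the 5 measured cholangiocyte markers or the 5 measured exocrine pancreas genes was 2-fold off, but with no floor 1 cholangiocyte marker was lower. Hepatocyte markers had 2 of 16 members 2-fold lower, Cyp2f2 (-1.55) and Ass1 (-1.21, from 408 in CON, 177 in DSS and 256 in DSSPAR), and a median of 0.14 (-0.36 with the hybridization controls and -0.089 with quantile normalization). Tff3, a secreted trefoil peptide of goblet cells on the colon epithelium list, was 5.61-fold higher, while Aqp8, a water channel that hepatocytes also make, and Car1 were 4.18-fold and 2.39-fold lower.

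Of 7 measured adipocyte markers, 3 were at least 2-fold lower, Thrsp and Car3, which hepatocytes also express, and Pparg, which was at least 2.08-fold lower. Fabp4, a fatty acid binding protein of adipocytes and macrophages, was 2.57-fold higher, but had a log2 ratio of -0.52 on probe sets of unshared type. The other measured members, Lipe, Retn and Cidec, had ratios of -0.77, -0.47 and -0.0091. Among 8 measured erythroid markers Tfrc was the only one past 2-fold. Over all single-symbol probe sets, under the floor or not, adipocyte markers summed to 210301 in CON, 68968 in DSS and 92998 in DSSPAR. That sum includes Car3 and Thrsp, the latter also on the lipid synthesis list, so it is not a measure of adipocytes alone. Erythroid markers summed in the same way to 6165 in CON, 9852 in DSS and 6181 in DSSPAR. These sums were not tested for a part in the other results.

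Lipid synthesis was the metabolic list furthest below CON. With the deposited scaling, each of the 26 measured members read lower in DSS than in CON, 14 of them at least 2-fold, and the median was -1.03, with -0.89 in the scaling that gave the smallest shift. Where a member had more than 1 usable probe set, these lay on 1 side of CON in 17 of 18. Me1, malic enzyme, which supplies NADPH, read 10766 in CON, 1231 in DSS and 3300.1 in DSSPAR, 8.75-fold lower. Acacb and Fasn, the acetyl-CoA carboxylase beta and fatty acid synthase genes, were at 1045 in CON, 179.5 in DSS and 1011 in DSSPAR, and 5283 in CON, 1313 in DSS and 4981 in DSSPAR. Their ratios came to 5.82-fold and 4.02-fold lower, and in both DSSPAR was close to CON. Thrsp, a lipogenic regulator, read 55639 in CON, 12649.9 in DSS and 24451 in DSSPAR, 4.398-fold lower.

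Further along the pathway, Elovl6 and Elovl5, which lengthen fatty acids, were 4.26-fold and 2.49-fold lower. Lpin1, the phosphatidate phosphatase, was 3.29-fold lower, and Acss2, which makes acetyl-CoA from acetate, 2.71-fold lower. The desaturase Scd1 at 86060.4 in CON, 59649.6 in DSS and 61744 in DSSPAR, with a ratio of -0.53, and the triglyceride enzymes Dgat1 and Dgat2, at -0.17 and -0.29, stayed within 2-fold on their brightest probe sets, but the second brightest of Scd1 had -2.301. The transcription factors Srebf1 and Mlxipl, which drive these genes under insulin and glucose, had -0.79 and -0.93. Elovl3, a very-long-chain elongase outside the list, was at 5938 in CON, 597 in DSS and 981 in DSSPAR, 9.95-fold lower, and Pnpla5, a lipase-family gene, at least 5.57-fold lower.

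Cholesterol genes gave a direction that turned with the scaling. Of 22 members, 4 were at least 2-fold higher and 0 lower, and the median was 0.026. With the hybridization controls 0 were higher and 5 lower, and the median was -0.48. Under the deposited scaling the higher ones were the regulator Srebf2 (1.497) and the enzymes Hmgcs1 (1.405), Sqle (1.19) and Cyp51 (1.06). In the setting that gave its lowest ratio, Srebf2 was at 0.021. Hmgcs1, HMG-CoA synthase, read 14624 in CON, 38717 in DSS and 33232 in DSSPAR, so DSS lay above CON on this probe set.

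In fatty acid oxidation, 30 of 34 members read below CON, but 4 were 2-fold lower and 1 higher, with a median of -0.34. Acaa1b, a peroxisomal thiolase, read 51658 in CON, 9098 in DSS and 16168 in DSSPAR, 5.68-fold lower. Acot1, an acyl-CoA thioesterase, was at least 3.94-fold lower, Ehhadh, the peroxisomal bifunctional enzyme, 2.35-fold lower, and Etfdh 2.05-fold lower. Cpt1a, the gate of mitochondrial oxidation, and Pdk4 were at -0.021 and -0.14, with -1.31 for Cpt1a on its second brightest probe set. Cyp4a14, a fatty acid omega-hydroxylase and PPARalpha target, stood apart at 234 in CON, 2219 in DSS and 539 in DSSPAR, 9.49-fold higher.

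Glucose and glycogen genes were lower at several steps, with 9 of 24 members at least 2-fold lower, 0 higher and a median of -0.81. In 5 of the 10 members with more than 1 usable probe set, these lay on 1 side of CON. On second brightest probe sets the list median was -0.36, with 3 of 10 members at least 2-fold lower. When the probe sets of each gene were averaged it was -0.53, with 9 of 24 lower. G6pc, glucose-6-phosphatase, the last step of glucose output, read 5536 in CON, 538 in DSS and 1960.4 in DSSPAR, 10.3-fold lower. Pklr, the liver pyruvate kinase, was at 2823 in CON, 637 in DSS and 1709.9 in DSSPAR, 4.43-fold lower. Gys2 and Gbe1, which build glycogen, were 2.68-fold and 2.46-fold lower, Pygl, which breaks it down, 2.41-fold lower, and the glucose transporter Slc2a2 2.42-fold lower. Genes of opposite steps were thus lower together. Pfkl was 2.42-fold lower on its brightest probe set and at 0.0097 on the second. Pck1 (-0.84) and Fbp1 (-0.79), of gluconeogenesis, did not reach 2-fold.

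**Figure D4:**
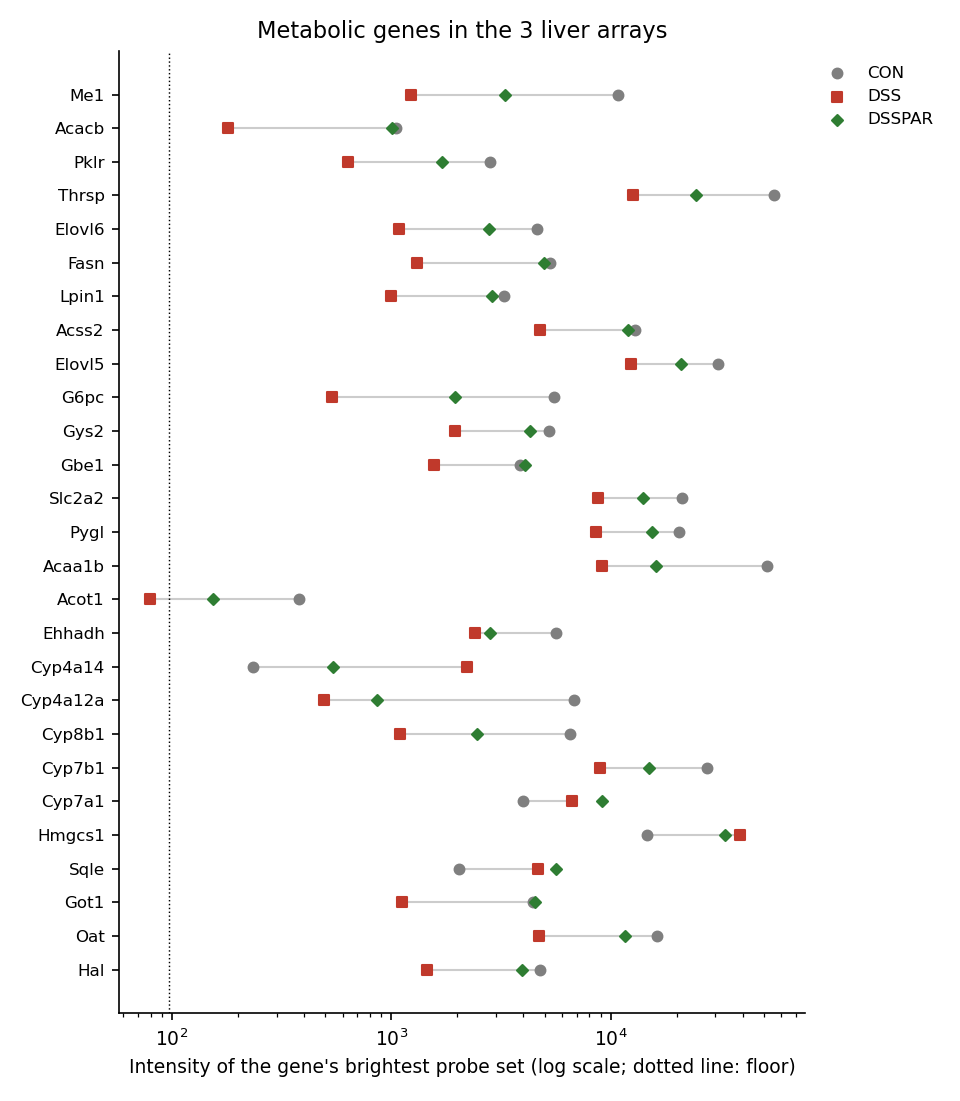
Intensity (log axis) of metabolic genes on the 3 liver arrays, with CON as grey circles, DSS as red squares, DSSPAR as green diamonds and the floor of 96.6 as a dotted line. DSS lies left of CON for Me1 (1231 against 10766) and G6pc (538 against 5536), and right of it for Cyp4a14 (2219 against 234).

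Amino acid catabolism had 9 of 34 members at least 2-fold lower and 1 higher, with a median of -0.74. Got1, cytosolic aspartate aminotransferase, read 4428 in CON, 1123 in DSS and 4513 in DSSPAR, 3.94-fold lower. Oat, of ornithine breakdown, was 3.45-fold lower and Hal, of histidine breakdown, 3.27-fold lower. Asns, which makes asparagine, was the higher one, at 2.27-fold higher. Among 18 methionine and sulphur amino acid genes, 2 were 2-fold lower, Gclc (-1.11), of glutathione synthesis, and Dmgdh (-1.02), of choline breakdown. The urea cycle genes Cps1 and Otc lay at -0.19 and -0.098. Etnppl, a phosphoethanolamine lyase outside the list, was 8.72-fold lower.

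Oxidative phosphorylation genes mostly read a little below CON. With the deposited scaling, of 46 subunit genes 40 read below CON, yet only Uqcrc1 (-1.101) was 2-fold lower, and the median was -0.44. There were 16 at least 2-fold lower with the hybridization controls, where the median was -0.94. Cytosolic ribosomal protein genes had a median of 0.16 (-0.34 with the hybridization controls) and no member 2-fold off. Proteasome genes had -0.11 (0.038 with arrays centred on their medians) and none 2-fold off, or 4 lower with the hybridization controls.

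Drug-metabolizing enzymes were lower in many members, and a few were higher. Of 34 measured cytochrome P450 genes, 10 were at least 2-fold lower and 2 higher, with a median of -0.66. Cyp4a12a, a male-biased fatty acid hydroxylase, read 6773 in CON, 493 in DSS and 862 in DSSPAR, 13.7-fold lower. Cyp1a2, which oxidizes caffeine and aromatic amines, was at 12659 in CON, 3608 in DSS and 12067 in DSSPAR, 3.51-fold lower. Cyp4v3 and Cyp2c55 were 3.61-fold and 3.26-fold lower. The higher members were Cyp4a14 and Cyp3a13 (2.92-fold higher). Cyp3a11 and Cyp2e1, among the most abundant hepatic P450s, had ratios of 0.29 and 0.22.

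Conjugating enzymes gave 11 of 36 at least 2-fold lower and 2 higher (median -0.63). Ugt2b38, a glucuronosyltransferase, read 14232 in CON, 1862 in DSS and 972 in DSSPAR, 7.64-fold lower. The glutathione transferases Gsta2, Gstt3, Gsta4 and Gstm6 were 6.01-fold, 5.16-fold, 4.26-fold and 4.21-fold lower. Nnmt, which methylates nicotinamide, read 6416 in CON, 25628 in DSS and 12991 in DSSPAR, 3.99-fold higher, and Sult1e1, the oestrogen sulphotransferase, had a log2 ratio of at least 2.32. Among esterases and oxidoreductases 8 of 31 were 2-fold lower, with the carboxylesterases Ces2a and Ces2e at -2.15 and -1.93, and Ces2b, outside the list, at -3.11. The carbonyl reductase Cbr3 was the higher one (1.27).

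Transporter genes had 3 of 28 at least 2-fold lower and 2 higher (median -0.55), or 15 lower and 0 higher with the hybridization controls. Slc22a7, an organic anion transporter, was 3.23-fold lower, Slco1a4 2.18-fold lower and Slc47a1 2.105-fold lower. Slc10a1, the main bile acid importer of hepatocytes, read 36204 in CON, 18863 in DSS and 25133 in DSSPAR, a ratio of -0.94 that falls just short of 2-fold, with -1.37 on the second brightest probe set. The bile salt pump gene Abcb11 had -0.53, and Slc10a2, the ileal-type bile acid importer, was 2.61-fold higher.

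Bile acid synthesis genes differed from step to step. Cyp8b1, the sterol 12-hydroxylase that sets the share of cholic acid, read 6529 in CON, 1099 in DSS and 2447 in DSSPAR, 5.94-fold lower. Cyp7b1, of the alternative branch, was at 27384 in CON, 8927 in DSS and 14957 in DSSPAR, 3.07-fold lower. DSS was the lowest of the 3 arrays for both. Cyp7a1, which catalyses the first step of the classical branch, stood at 3972 in CON, 6648 in DSS and 9114 in DSSPAR, a ratio of 0.74, within 2-fold. Cyp8b1 and Cyp7b1 were the only ones of the 17 measured members past 2-fold, and the list median was -0.24, with 0.059 over second brightest probe sets.

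Among genes set by growth hormone and sex, 6 of 22 were at least 2-fold lower and 1 higher. Besides Cyp4a12a, Elovl3 and Cyp7b1, which are higher in male than in female mouse liver, Serpina12 was 3.78-fold lower and Igfbp3, a carrier of IGF1, 2.28-fold lower. Ghr, the growth hormone receptor, had a ratio of -0.93, with -1.29 on its second brightest probe set, and Igf1 0.23. Igfbp1, a binding protein raised in fasting and inflammation, was the higher one, at 4471 in CON, 12594 in DSS and 12609 in DSSPAR, 2.82-fold higher. The male-biased major urinary protein gene Mup3 had 0.099 on its brightest probe set and -1.64 on the second, and Mup probe sets may share signal with related genes.

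Transcription factor genes mostly lay near CON, with 3 of 27 at least 2-fold higher and 1 lower, or 1 and 5 with the hybridization controls. Ahr, the dioxin receptor, was 3.76-fold higher although its target Cyp1a2 was lower. Cebpd, an acute phase C/EBP member, was 2.34-fold higher on its brightest probe set and at -0.47 on the second. Cebpb, Hnf4a, Nr1h4 and Ppara were at 0.12, 0.055, -0.0043 and -0.58. Of 17 clock genes, Nfil3 was 2.205-fold higher. Dbp and Cry2 were 2.41-fold and 2.41-fold lower, and Nr1d1 was at least 2.496-fold lower. The hour of tissue collection of each group is not given in the sources used here, and its part in the clock values was not tested.

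Replication genes were higher, with 10 of 22 measured members (29 on the array) at least 2-fold higher and 0 lower. The median was 0.93. Under the hybridization controls it was 0.43, with 2 members higher and 0 lower. Many of these signals were dim: with a floor at the 75th percentile 2 of 12 measured members were higher, at a median of 0.46. When the probe sets of each gene were averaged 6 of 23 were higher, and on second brightest probe sets 3 of 14. Mcm6, a subunit of the replicative helicase, read 155 in CON, 446 in DSS and 647 in DSSPAR, 2.87-fold higher. Cdk1, the mitotic kinase, was at 112 in CON, 292 in DSS and 300.2 in DSSPAR, 2.61-fold higher, with DSS above CON. Ccne2 and Rrm2 were 2.46-fold and 2.14-fold higher, with 0.13 for Rrm2 on its second brightest probe set, and Mki67, a proliferation marker, at least 2.01-fold higher. Pcna stayed at 0.11, and for Mcm5 and Mcm3 the probe sets disagreed, with Mcm3 at 1.402 on the brightest and -0.12 on the second. Over all single-symbol probe sets of the list, under the floor or not, intensities summed to 13421 in CON, 22057 in DSS and 23517 in DSSPAR.

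Of 19 immediate early genes, 4 passed 2-fold upwards and 2 downwards, with a median of 0.502. With the hybridization controls 1 was higher and 3 were lower, and the median was 0.00075. Fos was 5.23-fold higher and Egr1 2.48-fold higher, whereas Dusp1, a kinase phosphatase, and Myc were 2.96-fold and 2.68-fold lower. Myc was at -0.31 in the setting that gave its smallest shift. Of 14 p53 targets 4 were past 2-fold upwards and 1 downwards, with a median of 0.27. With the hybridization controls 0 were higher and 4 lower, and the median was -0.23. Cdkn1a, the p21 inhibitor, read 155 in CON, 379 in DSS and 188 in DSSPAR, 2.45-fold higher, and Mdm2 was 2.29-fold lower on its brightest probe set but at 0.078 on the second.

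Secretory pathway genes were shifted a little and together. Of 32 members 27 read above CON, 3 of them at least 2-fold, and the median was 0.49, which became -0.011 with the hybridization controls, where none was 2-fold off. Derl3, Pdia4 and Sdf2l1, of protein folding and disposal in the endoplasmic reticulum, had ratios of 1.44, 1.25 and 1.11, and the chaperone Hspa5 0.83. Ddit3 and Trib3, which mark the harsher arm of that stress response, were at -0.12 and -0.32. Among 26 NRF2 targets and antioxidant genes, 4 were higher and 4 lower, or 1 and 6 with the hybridization controls. In the heat shock list Bag3 (1.19) was the only one of 18 past 2-fold with the deposited scaling, against 0 higher and 2 lower with the hybridization controls. Gpx3, plasma glutathione peroxidase, was 3.73-fold higher, while Nqo1, a standard NRF2 target, was at -0.56. Gpx3 was at 0.29 in the setting that gave its lowest ratio.

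Further genes at the head of the liver comparison belonged to none of the lists. Spink1, a trypsin inhibitor, was at least 21.5-fold higher, Rpap3, an RNA polymerase assembly factor, 11.02-fold higher, and Crybb3, a crystallin, at least 14.04-fold higher. Spink1 had intensities of 91.6 in CON, 2080.1 in DSS and 237 in DSSPAR, and Rpap3 of 403 in CON, 4439 in DSS and 2022 in DSSPAR. Both were higher on the arrays of polymer-treated mice than in CON.

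Separate probe sets of a gene give the only internal check of these ratios. A total of 460 genes past 2-fold had more than 1 usable probe set, and in 63.7% of them every such probe set read to the same side of CON. Over the 5597 genes with more than 1, past 2-fold or not, it was 50.2%. With a brighter array of 1000 or more it held in 147 of 196 genes, and with 5000 or more in 78.7%. The second brightest probe set lay on the same side in 198 of 260 higher genes (76.2%) and in 137 of 189 lower genes (72.5%), and was itself past 2-fold in 28.1% and 25.9%. Taken over 5527 genes, the spread of a log2 ratio between probe sets was a robust SD of 0.40, which leaves out differences between mice, pools and arrays.

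The colon of the same mice offered a second pair of DSS and CON arrays. Colon intensities were raised to a floor of 25.1, against 96.6 in liver. Colon calls and bounds thus reach down to signals that would count as unmeasured in liver. Over the 10766 genes measured in both tissues, 119 were higher in both by 2-fold. Of all 11952 genes measured in colon, 5.18% were higher and 1.97% lower by that mark. The shared higher genes are 22.2% of the 535 higher in liver and 23.5% of the 507 higher in colon, against 4.71% of all shared genes that were higher in colon. Lower in both were 16 genes, 3.88% of 412 in liver and 8.89% of 180 in colon, against 1.67% of all shared genes that were lower in colon. Of the 535 genes higher in liver, 10 were lower in colon, against 1.67% of all shared genes. Of the 412 lower in liver, 14 were higher in colon, against 4.71% of all shared genes. Opposite calls were thus near or under the share over all shared genes. Across genes, which are not independent replicates, the log2 ratios had a Pearson correlation of 0.21 and a Spearman correlation of 0.14. The tissues came from the same mice but were on separate arrays.

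The shared higher genes included the calprotectin subunits and serum amyloid A. S100a8 was 39.1-fold higher in liver and at least 81.98-fold higher in colon, and S100a9 21.7-fold higher in liver and at least 33.4-fold higher in colon. Saa3 was 32.9-fold higher in liver and 13.02-fold higher in colon, and Lcn2 249.95-fold higher in liver and at least 19.8-fold higher in colon. Cxcl13 had a ratio of 2.75 in liver and 3.65 in colon. Other genes were past 2-fold in liver and within 2-fold in colon, a difference that was not tested. Tff3 had ratios of 2.49 and 0.071, Fasn -2.01 and 0.13, and Me1 -3.13 and -0.044.

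**Figure D5:**
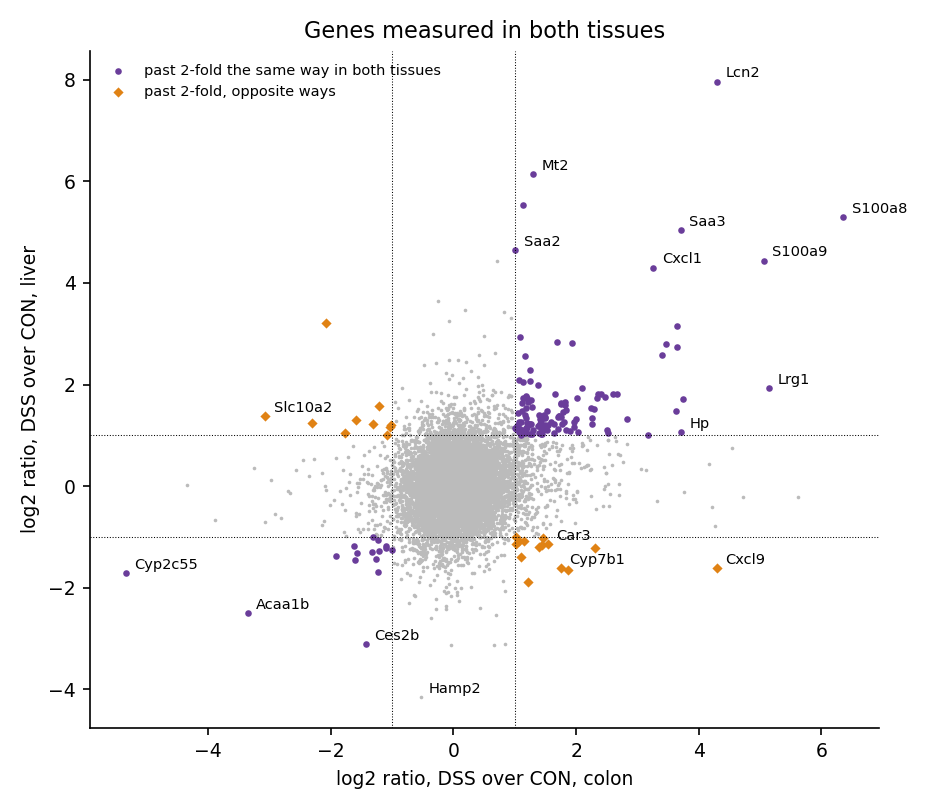
Log2 ratio of DSS to CON in liver (vertical axis) against that in colon (horizontal axis) for the 10766 genes measured in both tissues, 1 point per gene, with dotted lines at 2-fold, purple circles for genes past 2-fold the same way in both and orange diamonds for those past it in opposite ways. The 119 genes higher in both lie at the upper right, among them Lcn2 and S100a8, and Cxcl9 lies at the lower right, lower in liver and higher in colon.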

How the data were processed

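Each liver array held RNA pooled from 7 mice, with 1 array per group. The authors deposited 1 linear intensity per probe set and array, made with MAS5, per the submitters' processing notes. The sources used here give neither its version nor its target. After trimming the 2% highest and 2% lowest probe sets, each liver array had a mean intensity of 500.004, so all had been scaled to a common mean. Medians were 107, 96.7 and 86.5 in CON, DSS and DSSPAR.

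Of 45101 probe sets, 34958 carried 1 gene symbol in the platform annotation, 932 several and 9211 none that was listed. Only those with 1 symbol were used. A gene was read through its brightest probe set over the 3 liver arrays. Intensities under the floor were raised to it, log2 ratios of the deposited intensities were taken, and genes past 2-fold were counted. List medians hold floored members at their bound. With 1 array per group no test was possible, and the small number of arrays limits how precise any ratio is.

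The comparison, the 47 gene lists (1107 genes, 961 on the array) and the naming rule were chosen with earlier results of these data known. The rule takes the 15 highest and 15 lowest genes whose brighter array reached 147 and whose probe sets agreed in sign, and up to 6 members per list with the largest ratios. Other genes in the text were picked after their values were seen. Alternatives were another floor, no floor, 3 centrings, quantile normalization, other choices of probe set and a 3-fold threshold. The ratio and count steps were checked on simulated data. Promoters came from RefSeq (GRCm38.p6). Python 3.11.15, NumPy 2.4.6, pandas 2.3.3, SciPy 1.17.1 and matplotlib 3.10.9 were used.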

Additional observations from a re-analysis of the deposited data

Results flagged for a closer look

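In 5 genes named here, the DSS and CON arrays of liver and of colon were past 2-fold in opposite directions. With 1 array per group and tissue, the difference between tissues was not tested. Of 535 shared genes higher in liver, 10 were lower in colon, against 1.67% of all shared genes. Of 412 lower in liver, 14 were higher in colon, against 4.71%. Colon values were floored at 25.1 and liver values at 96.6. Cxcl9, the interferon-induced T cell attractant, was 3.05-fold lower in liver (2036 in CON, 667 in DSS and 967 in DSSPAR) and at least 19.6-fold higher in colon (23.1 in CON and 493 in DSS), and its log2 ratio in liver minus that in colon was -5.91. Cyp7b1, the oxysterol hydroxylase, was 3.07-fold lower in liver and at least 3.37-fold higher in colon (20.3 in CON and 84.7 in DSS), a difference of -3.37. Car3, a carbonic anhydrase of adipocytes and hepatocytes, was 2.199-fold lower and 2.91-fold higher, a difference of -2.68. Cd22, the B cell lectin, was at least 2.64-fold lower and 2.13-fold higher, a difference of -2.49. Slc10a2, the bile acid importer, went the other way. It was 2.61-fold higher in liver (150.4 in CON, 393 in DSS and 565 in DSSPAR) and at least 8.38-fold lower in colon (210.3 in CON and 14.9 in DSS), a difference of 4.45.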

How the results depend on the processing

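The counts of genes past 2-fold depended on the floor, on which probe set stood for a gene and on the scaling. A floor at the 75th percentile left 275 genes higher and 195 lower, of 7420 tested, and no floor gave 1063 and 1245. Second brightest probe sets, which exist for 5620 genes, gave 211 and 251, and left 2 gene lists over 0.5 below the median of all genes, where 8 had been. Centring on array medians left 349 genes lower. Centring on the hybridization controls, chosen after the data were seen, gave 168 higher and 1836 lower. At 3-fold there were 140 higher and 90 lower. Under the 75th percentile floor, 92.3% of genes past 2-fold had probe sets on 1 side, and 54 genes were higher and 7 lower in both tissues. Except where fewer genes or a stricter threshold shows it, the cause was not tested.

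Single genes turned their sign with another probe set. On the second brightest, Osmr had a log2 ratio of -0.21, Tfrc -0.58, Pfkl 0.0097, Cebpd -0.47, Mdm2 0.078 and Mcm3 -0.12. Without probe sets of shared type, Fabp4 had -0.52, Pfkl 0.0097 and Mcm3 -0.12. Other genes kept their sign but came near CON in some setting. At their smallest, Slc10a2 and Cdkn1a had 0.099 and 0.049, and Acot1 and Cyp2c55 -0.053 and -0.14. No paired analysis was possible because each group had 1 array per tissue, and no replicate could be left out. Dim probe sets limit the ratios: the SD between probe sets of a gene's ratio difference was 0.78 under an intensity of 200 and 0.31 from 5000 to 10000.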

Other observations

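Gene families were also read by the letters before the first digit of their symbols, a grouping made after the data were seen. Among 334 such families with at least 6 measured genes, the one with the largest share past 2-fold was Ces, the carboxylesterases, with 7 of 12 lower and none higher. In the Ifi family 5 of 11 genes passed 2-fold upwards and none downwards. Its members with the higher ratios were Ifi27l2b (1.78), Ifi27l2a (1.75) and Ifi204 (1.43), outside the list of interferon-stimulated genes. The Gstm glutathione transferases had 3 of 7 lower and none higher, and the Elovl elongases 3 of 6 lower and none higher.

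Several pairs and triplets of neighbouring genes had like ratios, and how far their probe sets separate close copies was not tested. The membrane proteins Ms4a6b, Ms4a6c and Ms4a6d, known from macrophages, were 3.34-fold, 3.31-fold and 3.51-fold higher in liver, and 5.05-fold, 2.24-fold and 6.38-fold higher in colon. Tmem176a and Tmem176b were 3.34-fold and 3.16-fold higher in liver. Ctla2a and Ctla2b, cathepsin inhibitor-like genes, were 2.92-fold and 4.13-fold higher. Hsd3b2 and Hsd3b3, steroid dehydrogenases, were 2.599-fold and 2.27-fold lower in liver and at least 3.77-fold and 3.06-fold lower in colon, among the few genes lower in both tissues.

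Some genes with large ratios belonged to no list and were chosen after their values were seen. Dnajc12, a co-chaperone of the aromatic amino acid hydroxylases, read 2019 in CON, 21646 in DSS and 13576 in DSSPAR, 10.7-fold higher. Prg4, lubricin, a secreted glycoprotein, was at 1333 in CON, 8766 in DSS and 11034 in DSSPAR, 6.58-fold higher. Slc41a2, a magnesium transporter, read 862 in CON, 6896 in DSS and 6051 in DSSPAR, 8.005-fold higher. For each, both arrays of polymer-treated mice lay above CON.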
